A study of Mus musculus with 3 samples.

Results

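The miR-26 family was followed through small RNA sequencing of mouse colonic mucosa. Its members were taken by name, as every row of the hairpins miR-26a and miR-26b in the deposited table, whatever the arm, and these were 4 of 471 rows: miR-26a-5p, miR-26b-5p, miR-26a-3p and miR-26b-3p. The table holds 3 libraries, 1 per group. The wild type library (WT) came from mucosa labelled healthy with the genotype global mir-10b+/+. The knockout library (KO) came from mucosa labelled diabetic with the genotype global mir-10b-/-. The third library (mimic) came from global mir-10b-/- mucosa after injection of a mimic of miR-10b-5p, under the label rescue. Strain, age, the dose of the mimic and the number of mice behind a library are absent from the sources used here. Genotype and diabetic state differ together between KO and WT, and no control injection is named for the mimic library. With 1 library per group no difference below has a replicate check, no test was run, and each comparison is between libraries, not conditions.

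A microRNA hairpin is cut into a short duplex of a 5p and a 3p strand, of which one is usually loaded into an Argonaute protein and kept while the other is degraded. The loaded strand finds its target messages mainly through its seed, the bases from 2 to 8. miR-26 genes lie in introns of the Ctdsp genes, which encode small phosphatases that act on the C-terminal domain of RNA polymerase II and on the retinoblastoma protein. miR-26a-5p is known for repressing Ezh2, the histone methyltransferase of the Polycomb complex, and for being held down by the transcription factor Myc. It is also known for improving insulin sensitivity when raised in mouse liver and for regulating vascular smooth muscle differentiation.

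The mature sequences show which rows can be told apart, with the seed in capitals. They are those of RefSeq on build GRCm38.p6, written 5′ to 3′.
miR-26a-5p: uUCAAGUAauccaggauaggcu
miR-26b-5p: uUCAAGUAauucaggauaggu
miR-26a-1-3p: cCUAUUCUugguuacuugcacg
miR-26a-2-3p: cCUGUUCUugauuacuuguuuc
miR-26b-3p: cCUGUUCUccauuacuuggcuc

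Both 5p strands share the seed UCAAGUA, and no other RefSeq mouse miRNA carries it. Counted from 1 at the 5′ end, miR-26a-5p and miR-26b-5p differ by C11U and C21U, and miR-26b-5p is 1 base shorter. Reads that end before position 21 are therefore told apart by position 11 alone, and a sequencing error there could assign them to the other row. How the authors treated such reads is not stated. Of the 3p strands, miR-26a-2-3p and miR-26b-3p share the seed CUGUUCU. miR-26a-1-3p has another seed, since it differs from miR-26a-2-3p at A4G and at 5 further positions. RefSeq names matched 3 of the 4 members and 385 of the 471 rows. The unmatched member is miR-26a-3p, because the table does not say which copy its 3p strand comes from.

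The hairpins are shown to locate the strands, which are in capitals, 5p first.
Mir26a-1: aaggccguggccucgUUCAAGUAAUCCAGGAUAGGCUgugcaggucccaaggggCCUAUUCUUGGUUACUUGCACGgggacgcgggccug
Mir26a-2: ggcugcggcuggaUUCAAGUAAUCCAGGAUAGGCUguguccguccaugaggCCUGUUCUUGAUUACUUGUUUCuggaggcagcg
Mir26b: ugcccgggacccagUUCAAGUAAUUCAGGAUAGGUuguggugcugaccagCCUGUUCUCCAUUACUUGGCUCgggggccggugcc

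Mir26a-1 lies at chr9:119031796-119031885, plus strand, in intron 5 of the 8-exon Ctdspl transcript of GENCODE M21. Mir26a-2 lies at chr10:126995530-126995613, plus strand, in intron 5 of the 8-exon Ctdsp2 transcript. Mir26b lies at chr1:74394310-74394394, plus strand, in intron 4 of the 7-exon Ctdsp1 transcript. Each hairpin is on the strand of its host gene. Because Mir26a-1 and Mir26a-2 give the same 5p strand, the miR-26a-5p row pools 2 genes, and their shares cannot be told apart.

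Values are normalized reads as deposited, and WT summed to 4872446, KO to 8124898 and mimic to 8510085. The sequencing depth is unknown. The deleted miR-10b-5p, which checks the labels, had 18057 normalized reads in WT against 14 in KO and 469 in mimic. The tissue label was set beside marker miRNAs: the 8 epithelial markers, each by its more abundant arm, made up 31.5% of all normalized reads in WT, with 31.5% in KO and 28.9% in mimic. Most of this was miR-192-5p, at 13.5%, 13.3% and 15.8%, and miR-200a-3p, at 7.81%, 9.29% and 5.85%. The members did not move together. miR-429-3p and miR-141-3p had their highest share in WT, and miR-192-5p and miR-215-5p in mimic. For miR-200a-3p, miR-200b-3p, miR-200c-3p and miR-194-5p it was in KO. The 5 smooth muscle markers made up 11.5%, 12.9% and 26% in the same order. Nearly all of this was miR-143-3p, at 6.04%, 11.7% and 19.5%, and miR-145a-5p, at 5.37%, 1.03% and 6.23%. Of the other markers in that list, miR-1a-3p and miR-133a-5p also had their highest share in mimic, and miR-133b-3p had its highest in WT.

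miR-26a-5p, the main functional strand of the family, had 120950 normalized reads in WT, followed by 122738 in KO and 128088 in mimic. On the deposited scale the 3 libraries lay close together, with mimic 1.06 times WT, whereas with equal totals the log2 ratio to WT was -0.72 for both KO and mimic. By level it ranked 9 of 471 rows in WT, with rank 11 in KO and rank 12 in mimic. In WT its neighbours in that order were miR-200b-3p at 171853 above and miR-23a-3p at 118055 below. The steps to those neighbours cannot be set against a replicate spread.

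miR-26b-5p, which shares the seed of miR-26a-5p, had 46415 normalized reads in WT, with 48655 in KO and 72583 in mimic. WT and KO differed by 1.05 times, and on the deposited scale mimic stood above both, 1.49 times KO and 1.56 times WT, though with equal totals it was below WT at a log2 ratio of -0.16. Its rank was 21 in WT, with 29 in KO and 19 in mimic. The next rows in WT were let-7g-5p at 50354 above and miR-101a-3p at 42718 below. The lower rank in KO came with a deposited level that was not lower than in WT.

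miR-26a-3p, the strand of miR-26a that is mostly discarded, had 368 normalized reads in WT, with 158 in KO and 560 in mimic. KO was the low library, 2.33-fold below WT, and mimic was 3.54-fold above KO and, as deposited, 1.52-fold above WT, a step that turned to a log2 ratio of -0.20 with equal totals. miR-26b-3p, the corresponding strand of miR-26b, had 221 in WT, with 149 in KO and 204 in mimic. It was also lowest in KO, 1.48-fold below WT, and mimic was 1.37-fold above KO.

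**Figure D1:**
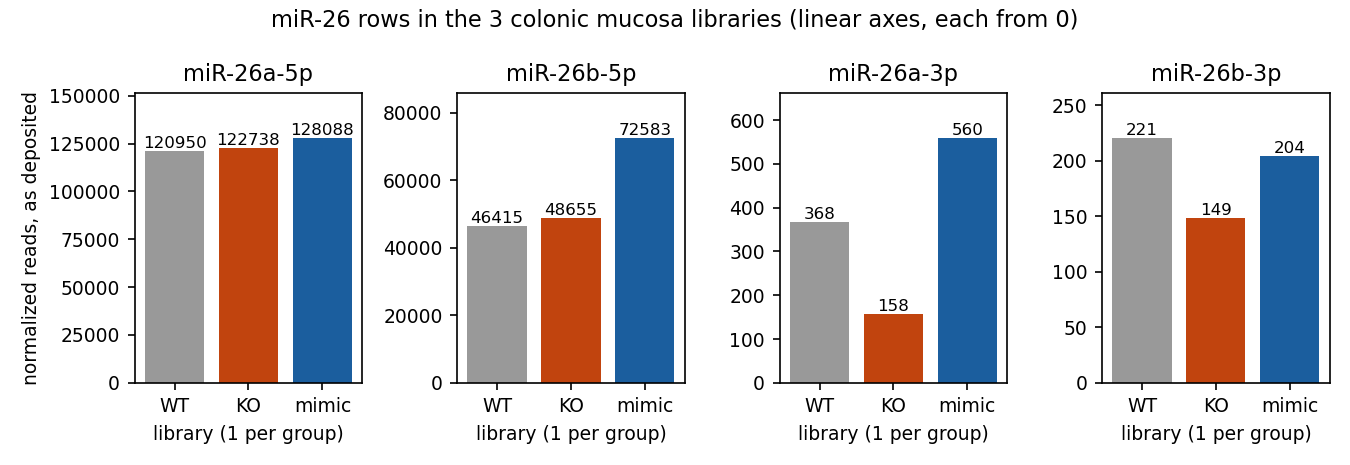
Normalized reads of the 4 miR-26 rows (vertical axes, linear from 0, 1 scale per panel) in the WT, KO and mimic libraries, with each bar 1 library and no error bars because there are no replicates. miR-26a-5p is nearly level at 120950, 122738 and 128088 on this scale (with equal totals its range over the libraries is 0.72 on the log2 scale), miR-26b-5p is highest in mimic at 72583 (below WT with equal totals), and both 3p strands are lowest in KO, at 158 and 149.

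In sum the 4 rows held 167954 normalized reads in WT, with 171700 in KO and 201435 in mimic. Nearly all of it was 5p strand, with the 3p strands together at 589, 307 and 764. As a share of all normalized reads the family was 3.45% in WT, with 2.11% in KO and 2.37% in mimic. The level was thus slightly higher in KO than in WT while the share was lower, because the KO column has the larger total.

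The comparison of KO with WT sets a mir-10b-/- library labelled diabetic beside a mir-10b+/+ library labelled healthy. With a pseudocount of 1 added to each value, the log2 ratio was 0.02 for miR-26a-5p, 0.07 for miR-26b-5p, -1.21 for miR-26a-3p and -0.57 for miR-26b-3p. At a limit of 2-fold, 1 of 4 members was lower in KO, miR-26a-3p, and 0 were higher. Among the 415 rows with a mean of at least 10 over the 3 libraries, a filter that all 4 members passed, 9.64% were at least 2-fold lower and 21.2% at least 2-fold higher. The median log2 ratio over those rows was 0.13, above that of all 4 members. Set against that median, miR-26a-5p was at -0.11 and miR-26b-5p at -0.06, with miR-26a-3p at -1.35 and miR-26b-3p at -0.70.

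Rows of like level were also counted. Both 3p members fall among the 150 rows with a mean of 100 to under 1000, of which 7.33% were at least 2-fold lower in KO than in WT and 16.7% higher. In mimic against WT 30.7% of these 150 rows were lower and 15.3% higher, and neither 3p member was among them. Both 5p members fall among the 61 rows with a mean of at least 10000, of which 3.28% were lower and 27.9% higher in KO than in WT. The shares of the 61 were 16.4% lower and 9.84% higher for mimic against KO, and 4.92% lower and 29.5% higher for mimic against WT. Neither 5p member was past the limit in any of the 3 comparisons.

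The comparison of mimic with KO sets 2 knockout libraries side by side, with and without the injected mimic. The log2 ratios were 0.06 for miR-26a-5p (-0.0053 with equal totals), 0.58 for miR-26b-5p, 1.82 for miR-26a-3p and 0.45 for miR-26b-3p. Here 1 of 4 members passed the limit upward, again miR-26a-3p, and 0 were lower, beside 13.3% of the 415 rows higher and 28.2% lower. All 4 members lay above the median log2 ratio of all rows, which was -0.31. Relative to it they were at 0.37 for miR-26a-5p, 0.89 for miR-26b-5p, 2.13 for miR-26a-3p and 0.76 for miR-26b-3p. Among the 150 rows of the 3p members' level, 12.7% passed the 2-fold limit upward in that comparison and 31.3% downward.

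The comparison of mimic with WT gives the distance of the treated knockout library from wild type. The log2 ratios were 0.08 for miR-26a-5p, 0.65 for miR-26b-5p, 0.60 for miR-26a-3p and -0.11 for miR-26b-3p, and the sign of each depended on the scaling: the first 3 were at -0.72, -0.16 and -0.20 with equal totals and the last at 0.02 with median-of-ratios factors. At the 2-fold limit 0 of 4 members were higher and 0 lower, beside 19.8% and 25.8% of the 415 rows, whose median was -0.14. The 3 comparisons share libraries, so their ratios are not independent of each other.

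**Figure D2:**
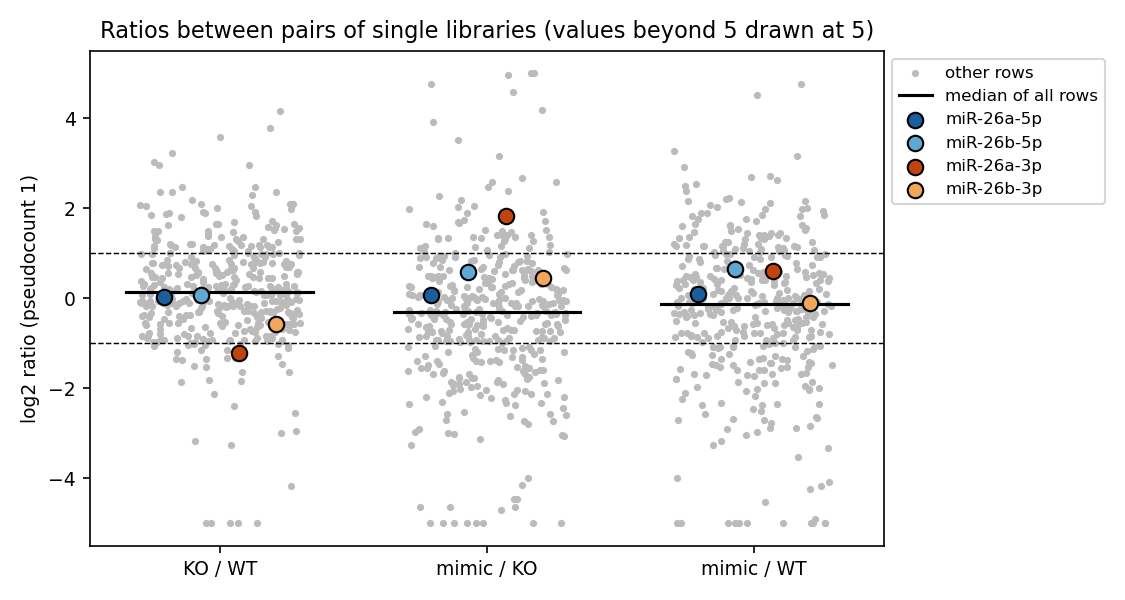
Log2 ratios (vertical axis, pseudocount 1) of all 415 rows with a mean of at least 10 for the 3 pairs of libraries, with the 4 miR-26 rows as coloured circles, the other rows in grey, the median of all rows as a black line and the 2-fold limit dashed. miR-26a-3p lies past the limit at -1.21 in KO / WT and at 1.82 in mimic / KO, and the other miR-26 rows lie inside it in each pair.

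The sign of the 5p ratios to WT depended on the scaling, whereas miR-26b-5p was higher in mimic than in KO under all 4 scalings shown. With the libraries scaled to equal totals, each log2 ratio moved by -0.74 for KO against WT, by -0.07 for mimic against KO and by -0.80 for mimic against WT. miR-26a-5p was then at -0.72 in KO against WT and miR-26b-5p at -0.67, both on the lower side. Median-of-ratios factors, which centre the rows detected in all libraries, added -0.15, 0.29 and 0.14. With them miR-26a-5p was at -0.13 and miR-26b-5p at -0.08. miR-26a-3p stayed past the 2-fold limit in KO against WT, at -1.95 and -1.37, and, for mimic against KO, at 1.75 and 2.11. miR-26b-3p was past it in KO against WT with equal totals, at -1.30. The split of all rows in KO against WT, 88 higher and 40 lower, became 30 and 141 with equal totals.

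**Figure D3:**
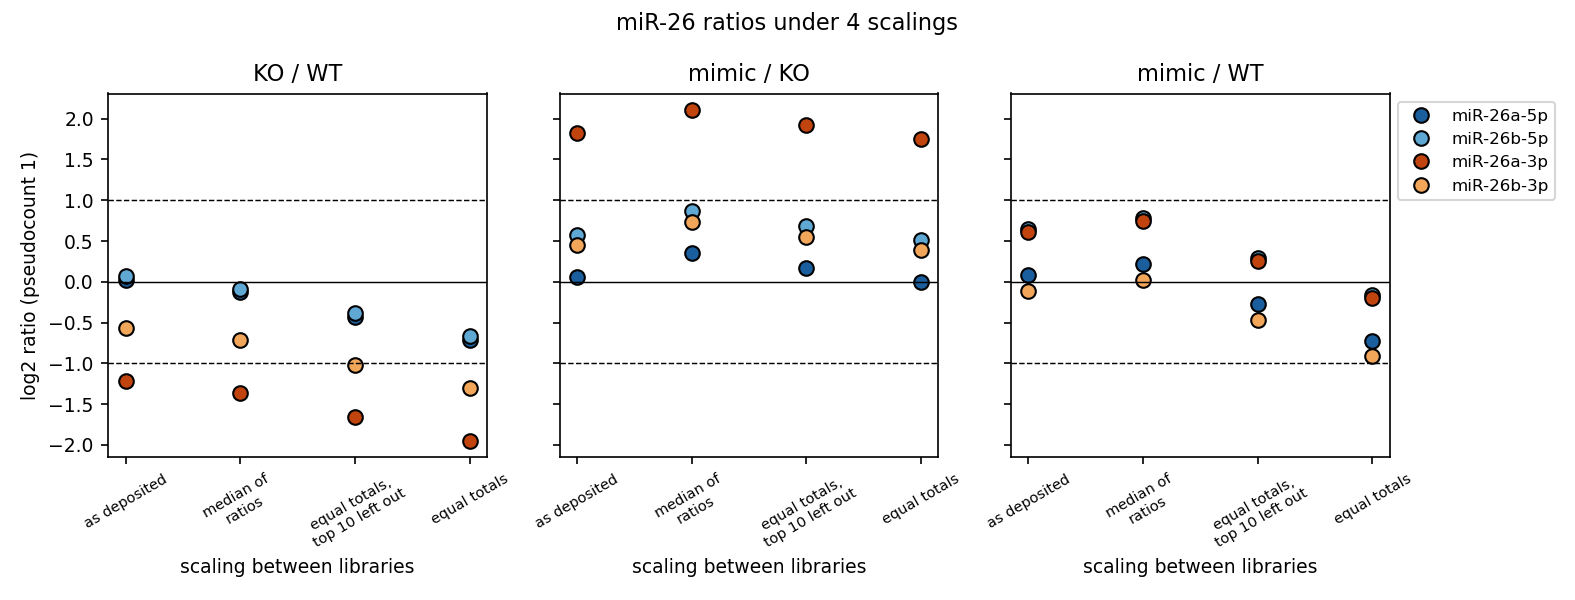
Log2 ratios (vertical axes, pseudocount 1) of the 4 miR-26 rows in the 3 pairs of libraries under 4 ways of scaling the libraries (horizontal axes), with the 2-fold limit dashed. In KO / WT every row moves down together from the deposited scale to equal totals, where miR-26a-5p reaches -0.72, and miR-26a-3p is past the limit under all 4 scalings.

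Over the 3 libraries miR-26a-5p had one of the narrowest ranges in the table. Its highest and lowest library differed by 0.08 on the log2 scale, against a median range of 1.34 over the 415 rows, and 1 row, miR-27b-5p, had a smaller range. Among the 61 rows with a mean of at least 10000, 0 had a smaller range. This rank rests on the deposited scale: with equal totals the range of miR-26a-5p was 0.72 and 52 rows were narrower, and with median-of-ratios factors it was 0.35 and 24 rows were narrower. The range of miR-26b-5p was 0.65 as deposited, with 72 narrower rows. miR-26b-3p had a range of 0.57 and miR-26a-3p one of 1.82, wider than 284 of the rows.

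**Figure D4:**
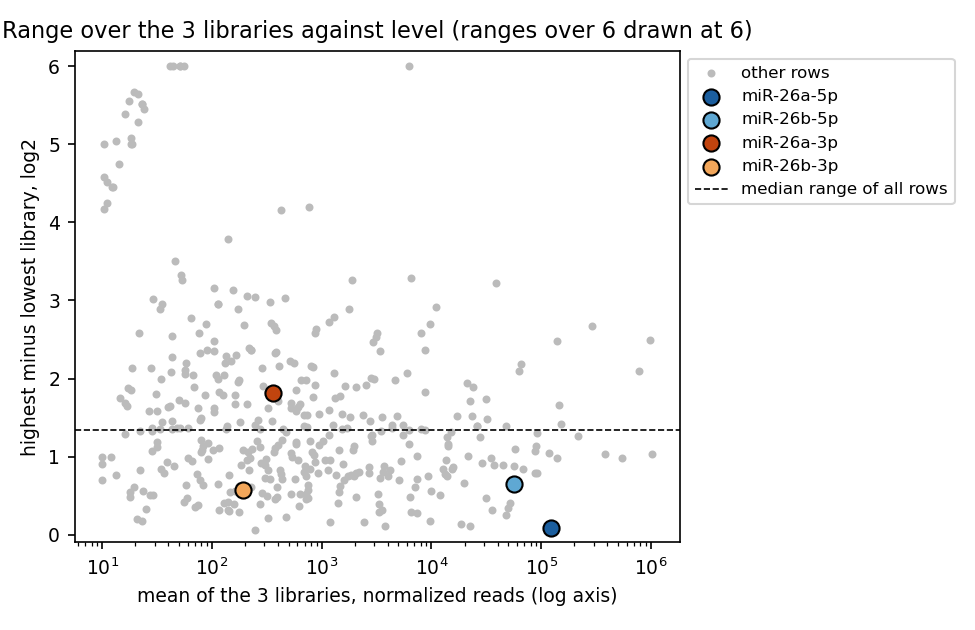
Difference between the highest and the lowest of the 3 libraries (vertical axis, log2, deposited scale) against the mean level (horizontal axis, log scale) for 415 rows, with the miR-26 rows as coloured circles and the median range dashed. miR-26a-5p sits at the bottom right, abundant and with a range of 0.08, while miR-26a-3p lies above the median range of 1.34.

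Ratios within a library do not depend on how libraries are scaled. miR-26a-5p was 2.61 times miR-26b-5p in WT, with 2.52 times in KO and 1.76 times in mimic. The balance was alike in WT and KO and nearer to equal in mimic, where miR-26b-5p made up 36% of the family's reads against 27.6% in WT and 28.3% in KO. The log2 of that ratio changed by -0.05 from WT to KO, by -0.52 from KO to mimic and by -0.56 from WT to mimic. To place these, the same change was computed for the 127 pairs of rows with a mean of at least 10 that share a seed. The miR-26 pair is among them, and a row can belong to several pairs. The pairs were not matched for level, so they include rows far less abundant than the miR-26 5p strands. The change in mimic against WT was matched or exceeded in 56.7% of pairs and that in mimic against KO in 73.2%. In KO against WT 92.9% of the pairs changed by at least as much as miR-26a-5p and miR-26b-5p did.

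The 5p strand outweighed the 3p strand by a wide margin for both miR-26a and miR-26b. For miR-26a the ratio is between rows and not strands of a single hairpin, since the 5p row pools 2 genes and the copy behind the 3p row is not stated. miR-26a-5p was 329 times miR-26a-3p in WT, with 777 times in KO and 229 times in mimic. For miR-26b the 5p strand was 210 times the 3p strand in WT, with 327 times in KO and 356 times in mimic. KO thus held the most one-sided miR-26a, whereas for miR-26b WT was the least one-sided library and KO and mimic were close. Of the 142 miRNAs with 1 row for each arm, both with a mean of at least 10, there were 6 that had a higher 5p to 3p ratio than miR-26a in WT and 10 had a higher one than miR-26b. In KO these numbers were 5 and 9, and in mimic 11 and 10.

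The log2 of the 5p to 3p ratio of miR-26a was 1.24 higher in KO than in WT, and that of miR-26b was 0.63 higher. Over the 142 miRNAs the median shift was 0.55 in the same direction, and 35.2% moved toward 5p by at least 2-fold against 14.8% toward 3p. A shift toward 5p as large as that of miR-26a was found in 39 of them, miR-26a included. In mimic against KO the ratio of miR-26a was 1.76 lower, a size reached toward 3p by 23 of 142, beside 26.1% that moved toward 3p by at least 2-fold and 22.5% toward 5p. The ratio of miR-26b was 0.13 higher in that comparison, so miR-26a and miR-26b went opposite ways, a difference that was not tested. In mimic against WT the ratio of miR-26a was 0.52 lower and that of miR-26b 0.76 higher, with a median shift of 0.40, and 34.5% of the 142 moved at least 2-fold toward 5p and 16.9% toward 3p.

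**Figure D5:**
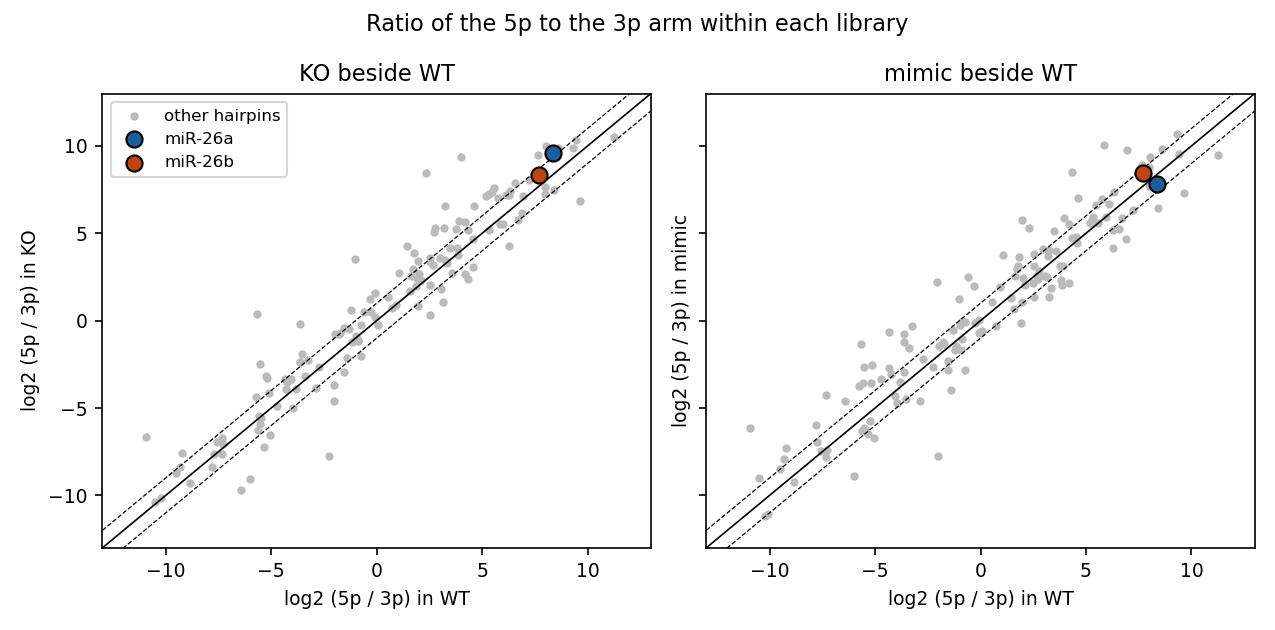
Log2 ratio of the 5p to the 3p arm within a library for 142 miRNAs, with WT on the horizontal axes and KO (left) or mimic (right) on the vertical axes, miR-26a and miR-26b as coloured circles, the line of equality solid and 2-fold shifts dashed. In KO miR-26a lies above the upper dashed line, 1.24 above its WT value, and in mimic it lies 0.52 below its WT value while miR-26b lies 0.76 above.

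Marker miRNAs of other cell types also differed between the libraries, and on the deposited scale the leading rows of some lists had the pattern of miR-26a-3p, lowest in KO and highest in mimic. The 4 white blood cell markers summed to 34904 in WT, with 16685 in KO and 50000 in mimic. That sum was nearly all miR-142a-5p, at 31674, 14200 and 47347, and miR-223-3p, at 1438, 1179 and 1821, had the same order of libraries. By contrast miR-142a-3p, the other strand of miR-142a and not in the list, was highest in KO, at 1587, 2753 and 1804. In the list miR-150-5p, at 1187, 613 and 410, and miR-155-5p, at 605, 693 and 422, were lowest in mimic. The 2 measured of 3 red blood cell markers summed to 1939, 1538 and 2889, with miR-451a lowest in KO at 1615, 849 and 2164 and miR-144-3p lowest in WT at 324, 689 and 725. The 5 smooth muscle markers summed to 561063, 1046594 and 2210275, led by miR-143-3p. Of the other markers in that list miR-145a-5p, at 261621, 83319 and 529831, miR-133a-5p, at 70, 36 and 205, and miR-133b-3p, at 2158, 1286 and 1726, were lowest in KO. The remaining miR-1a-3p, at 2989, 7441 and 22584, was lowest in WT. The median log2 ratio of the list in KO against WT was -0.75 where that of the sum was 0.90. The endothelial miR-126a-3p was at 38616, 53124 and 82351, highest in mimic as the smooth muscle sum and, on the deposited scale, miR-26b-5p were. The 3 fibroblast and mesenchyme markers summed to 52694, 66785 and 52679, which was 1.08%, 0.822% and 0.619% of all normalized reads. Of these miR-199b-3p and miR-199a-5p were highest in KO, whereas miR-214-3p was highest in WT, at 2749, 2211 and 371. The 3 neuronal markers summed to 748, 571 and 605. No measured marker was at 0 in any library. The part of these markers in the miR-26 values was not tested. In bulk mucosa, fewer cells of a type and less of a miRNA per cell cannot be told apart.

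The rows most like the 5p members were found by the distance between their pairs of log2 ratios, KO against WT and mimic against WT, among 298 other rows with a mean of at least 100. Over these 3 libraries the nearest to miR-26a-5p was miR-221-3p, with 3635 in WT, then 3911 in KO and 3654 in mimic, at a distance of 0.11 on the log2 scale. It was followed by miR-27b-5p at 0.15, miR-598-3p at 0.17, miR-182-5p at 0.18 and miR-140-5p at 0.18. Nearest to miR-26b-5p was miR-181c-3p, at 644, 697 and 890, a distance of 0.18. miR-28c at 0.19, miR-15a-5p at 0.22, miR-421-3p at 0.25 and miR-125b-3p at 0.32, which is 1 of 2 rows of that name, came next. With 3 libraries, such likeness is a description only.

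Other miRNAs reported to be repressed by Myc, the group to which miR-26a and miR-26b belong, were read by the more abundant arm of each. All 23 were measured, most with a mean of at least 10000. Of the 61 rows at that level, 27.9% were at least 2-fold higher and 3.28% lower in KO against WT. The shares were 9.84% and 16.4% for mimic against KO, and 29.5% and 4.92% for mimic against WT. In KO against WT 10 of the 23 were at least 2-fold higher and 1 was at least 2-fold lower. Their median log2 ratio was 0.31 beside 0.13 over all rows, of which 21.2% were higher and 9.64% lower. With equal totals the counts became 4 higher and 6 lower, beside 30 and 141 of all 415 rows, and the median turned to -0.43. miR-29a-3p, a repressor of collagen genes, had 101418 in WT, then 95703 in KO and 255114 in mimic. let-7g-5p, of the let-7 family that restrains growth, was at 50354, 124550 and 97101, and let-7f-5p at 51022, 105438 and 112419. All 5 miR-30 members had ratios from 1.71 for miR-30b-5p to 3.23 for miR-30d-5p, whereas the miR-26 5p strands were at 0.02 and 0.07. In mimic against KO 3 of the 23 were higher and 3 were lower, beside 13.3% and 28.2% of all rows, and their median was -0.28 beside -0.31, a median that turned to 0.01 with median-of-ratios factors. For mimic against WT the counts were 8 higher and 2 lower, beside 19.8% and 25.8% of all rows, and the median was 0.43 beside -0.14. With equal totals these became 2 higher, miR-30a-5p and miR-30d-5p, and 6 lower, beside 30 and 194 of all 415 rows. The median was then at -0.38.

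Of 6 other miRNAs reported to target Ezh2, 5 were measured. miR-101a-3p, the most abundant, had 42718 in WT, then 54813 in KO and 56691 in mimic. In KO against WT 1 of the 5 was at least 2-fold higher, miR-98-5p at 1662 and 3821, and 1 was lower, miR-124-3p at 168 and 77, beside 21.2% and 9.64% of all rows. With equal totals miR-98-5p was inside the limit, and the counts were 0 higher and 3 lower, beside 30 and 141 of all 415 rows. The mesenchymal miR-214-3p had 2749 in WT, then 2211 in KO and 371 in mimic, the 1 member that was lower in mimic against KO, beside 28.2% of all rows.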

How the data were processed

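Small RNA from mouse colonic mucosa was sequenced in 3 libraries, 1 per group, from TruSeq small RNA libraries read single-end on an Illumina HiSeq instrument, per the labels' protocols. The deposited values are a score: normalized miRNA reads rounded to whole numbers by the authors, per the file headers. Aligner, counting and normalization are not stated in any source used here, and mm10 is the build in the submitters' processing notes. The deposited columns of the unit other are differences between libraries, and they equalled the subtraction in all but 0 rows. Low values did not lie on whole multiples of a step (at best 47% in WT, 44.6% in KO and 56% in mimic, within 0.1 of a step), so reads were not recovered and no counting interval is given.

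Log2 ratios used a pseudocount of 1, calls a 2-fold limit, and counts the rows with a mean of at least 10. Ratios within a library used no pseudocount, and shifts of log2 arm ratios used 1. Names occurring more than once were left out of arm and seed pairs. Sequences came from RefSeq (GRCm38.p6) and host genes from GENCODE M21, which share the coordinates of mm10. Counting was tested on simulated data. Python 3.11.15, pandas 2.3.3 and matplotlib 3.10.9 were used. The named rows are the members, the deleted miRNA, neighbours in level and the 5 most like rows per 5p member. The 3 most abundant rows per list were also named. Other list rows, the other strand of a marker and rows on which a count or range turned were chosen after their values were seen. The members and lists were chosen with earlier results of these data known. Alternatives were 4 other scalings, pseudocounts of 0.1 and 10, leaving out the filter, requiring a mean of 100 and a 1.5-fold limit.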

Additional observations from a re-analysis of the deposited data

How the results depend on the processing

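The log2 ratio of the summed miR-26 rows depended on scaling. In KO against WT it was 0.03 as deposited, -0.71 with equal totals (also without miR-10b), -0.42 with equal totals after leaving out the 10 most abundant rows and -0.12 with median-of-ratios factors. In mimic against KO it was 0.23 as deposited, 0.33 without the 10 most abundant rows and 0.52 with median-of-ratios factors. In mimic against WT it was 0.26, -0.54 with equal totals, -0.55 also without miR-10b, -0.088 without the 10 most abundant rows and 0.40 with median-of-ratios factors. Members at least 2-fold lower in KO than in WT numbered 1, and 2 in all 3 equal-total scalings, where miR-26b-3p joined. A 1.5-fold limit gave 2 members higher in mimic than in WT in place of 0, beside 113 of the 415 rows in place of 82. By construction a scaling adds 1 constant to all ratios of a comparison. Ratios within a library moved by at most 0.1 on the log2 scale with other pseudocounts. In all, 64 of the alternative values for the main results stayed within 0.1 on the log2 scale or within 1.5 times the count, and 14 did not. The 64 include values that could hardly move, such as the sums with another pseudocount, so this tally does not measure stability. The 14 include every other scaling of the sum in KO against WT and in mimic against WT.

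Over all rows, 88 higher and 40 lower in KO than in WT became 30 and 141 with equal totals, 47 and 96 without the 10 most abundant rows, 58 and 18 with a mean of at least 100, and 137 and 86 at 1.5-fold. The lower rows were 61 with median-of-ratios factors and 75 with no filter. In mimic against KO, 55 higher became 93 at 1.5-fold. In mimic against WT, 82 and 107 became 30 and 194 with equal totals, with 51 higher without the 10 most abundant rows and 67 lower with a mean of at least 100.

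The effect of scaling on the Myc and Ezh2 lists, given beside their counts, was computed after seeing the data.

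No paired analysis was possible because each group has 1 library. No library was left out, for the same reason. The unknown depth limits most the 3p rows, with values of 149 to 560, for which no counting interval is given.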
